A study of Mus musculus with 18 samples.

Results

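The fatty acid uptake and transport genes described here are Cd36, Lpl, Gpihbp1, Angptl4, Fabp4, Slc27a1, Slc27a2, Slc27a3, Slc27a4 and Vldlr, which make up 10 of the 25124 genes in the count tables. These genes were chosen by name for their roles, with earlier results of these data known. Their RNA was measured by sequencing of polyadenylated RNA from 3 fat depots, the inguinal white (iWAT), the epididymal white (eWAT) and the brown (BAT). The mice were wildtype (WT) or carried a global caspase-6 knockout (C6KO), with 3 libraries for each of the 6 groups and 18 libraries in all. All mice were males on the C57BL/6J background, entered a high fat diet (HFD) with 60% of its energy from fat at 10 to 14 weeks of age, and ate it for 12 weeks. There was no chow-fed group among these libraries, so every comparison is between obese-diet mice, and the deletion is present in every cell of a C6KO mouse rather than in fat cells alone. Libraries were labelled as biological replicates, without a label tying a number to 1 animal across depots, and p-values measure the spread between these libraries. The study's methods describe a fast before the mice were killed for tissue collection.

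Triglyceride in circulating lipoproteins is cut by lipoprotein lipase (LPL), which GPIHBP1 carries across the capillary endothelium and holds at its surface and which ANGPTL4 inactivates, while the very low density lipoprotein receptor (VLDLR) binds triglyceride-rich particles. The fatty acids released, and those bound to albumin, enter the cell with the help of the scavenger receptor CD36 and of fatty acid transport proteins of the SLC27 family, which also couple fatty acids to coenzyme A, and inside the adipocyte they are bound by FABP4. Several of these genes, among them Lpl, Cd36, Fabp4, Angptl4 and Gpihbp1, are known targets of peroxisome proliferator-activated receptors, and the study asked what loss of caspase-6 does to lipid handling in fat.

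The promoters of Slc27a1 and Slc27a4 are shown because these were the genes whose C6KO libraries lay above all WT libraries in each of the 3 depots on the normalized scale used below, as did 0.754% of the 13132 genes tested in all of them. On the TPM scale Slc27a4 overlapped between genotypes in every depot and Slc27a1 in BAT. A window ending at the listed start site was held in the RefSeq table (GRCm38.p6, the patch release of mm10) for 6 of the 10 genes, Cd36, Slc27a1, Slc27a2, Slc27a3, Slc27a4 and Vldlr. The entries are missing for Lpl, Gpihbp1, Angptl4 and Fabp4. The Cd36 window reported is that of the minus-strand start listed for the white depots (chr5:17835896), not of the start listed for BAT (chr5:17849792). The 250 bases before the start of Slc27a1 lie on the plus strand at chr8:71568621-71568870 and those of Slc27a4 on the plus strand at chr2:29802384-29802633, both written 5′ to 3′ with any match to the motifs below in capitals.
Slc27a1: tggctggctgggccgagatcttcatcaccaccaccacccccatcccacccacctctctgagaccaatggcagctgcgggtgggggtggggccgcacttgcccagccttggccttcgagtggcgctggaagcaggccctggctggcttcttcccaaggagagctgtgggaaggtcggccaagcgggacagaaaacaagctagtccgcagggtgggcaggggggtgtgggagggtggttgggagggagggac
Slc27a4: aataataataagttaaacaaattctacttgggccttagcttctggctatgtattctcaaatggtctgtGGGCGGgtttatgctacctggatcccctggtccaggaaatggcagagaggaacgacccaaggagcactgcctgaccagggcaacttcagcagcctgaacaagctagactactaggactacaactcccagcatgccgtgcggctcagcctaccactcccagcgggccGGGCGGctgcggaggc
Both strands were searched for the nuclear receptor core motif AGGTCA, for 2 such motifs spaced by 1 base (AGGTCANAGGTCA, the direct repeat that PPAR heterodimers bind), and for the GC box GGGCGG bound by SP1, where the first motif is contained in the second. The Slc27a4 window held 2 GC boxes, starting 182 and 16 bases before the start site, and the Slc27a1 window held none of the 3 motifs although 66.4% of its bases were G or C. GC boxes were also found in the windows of Cd36, Slc27a2, Slc27a3 and Vldlr, and 32.7% of all 32851 windows of the same length held one. The core motif stood in the windows of Cd36 and Slc27a2, starting 228 and 220 bases before the start, against 14% of all windows. The direct repeat was in none of the 6 windows and in 0.0335% of all windows.

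Library totals were 16506034 to 19043523 counts for iWAT, 16717201 to 19139694 for eWAT and 7803108 to 12428683 for BAT. The targeted gene Casp6 had no C6KO value reaching the lowest WT value of its depot. By edgeR's quasi-likelihood test its log2 fold change was -1.85 in eWAT (SE 0.195, adjusted p = 0.0132), -1.51 in iWAT (SE 0.198, adjusted p = 0.0751) and -1.5 in BAT (SE 0.326, adjusted p = 0.0671). In iWAT the third C6KO library stood apart: its 14 macrophage markers summed to 2727 TPM, a level scaled by transcript length and library total, against 874 and 979 in the other two and 3792 to 4368 in WT, and without it 8.64% of genes passed the test in iWAT instead of 4 genes. In BAT the second WT library carried 46857 TPM of 12 skeletal muscle markers, against 203 to 7447 in the others. The depot labels matched the RNA, since the 10 brown adipocyte markers summed to at least 14960 TPM in every BAT library and at most 406 TPM in every white library.

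The 10 genes spanned a wide range of levels. On the per-length TPM scale Fabp4 was the most abundant of all genes in each of the 6 groups, at 44408 ± 4970 (SD, n = 3) in WT iWAT, 20026 ± 2853 in WT eWAT and 38440 ± 9334 in WT BAT. Lpl and Cd36 followed within the list. Their WT means were 9125 ± 484 and 4515 ± 301 TPM in iWAT and 7230 ± 292 and 4429 ± 491 TPM in eWAT. In WT BAT they were 3635 ± 720 and 3431 ± 353 TPM, and the libraries of Lpl and Cd36 overlapped. Angptl4, Slc27a1 and Gpihbp1 formed a middle tier between 170 and 1026 TPM in WT fat, Vldlr and Slc27a4 stayed between 19.7 and 94.2 TPM, and Slc27a3 lay between 3.43 and 9.26 TPM. Slc27a2, an acyl-CoA synthetase of peroxisomes and the endoplasmic reticulum best known from liver and kidney, was set apart by depot, at 192 ± 45.7 TPM in WT BAT against 0.668 ± 0.763 in WT iWAT and 0.108 ± 0.0995 in WT eWAT. The 10 genes together took 2.08% to 4% of all counts in a library.

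**Figure D1:**
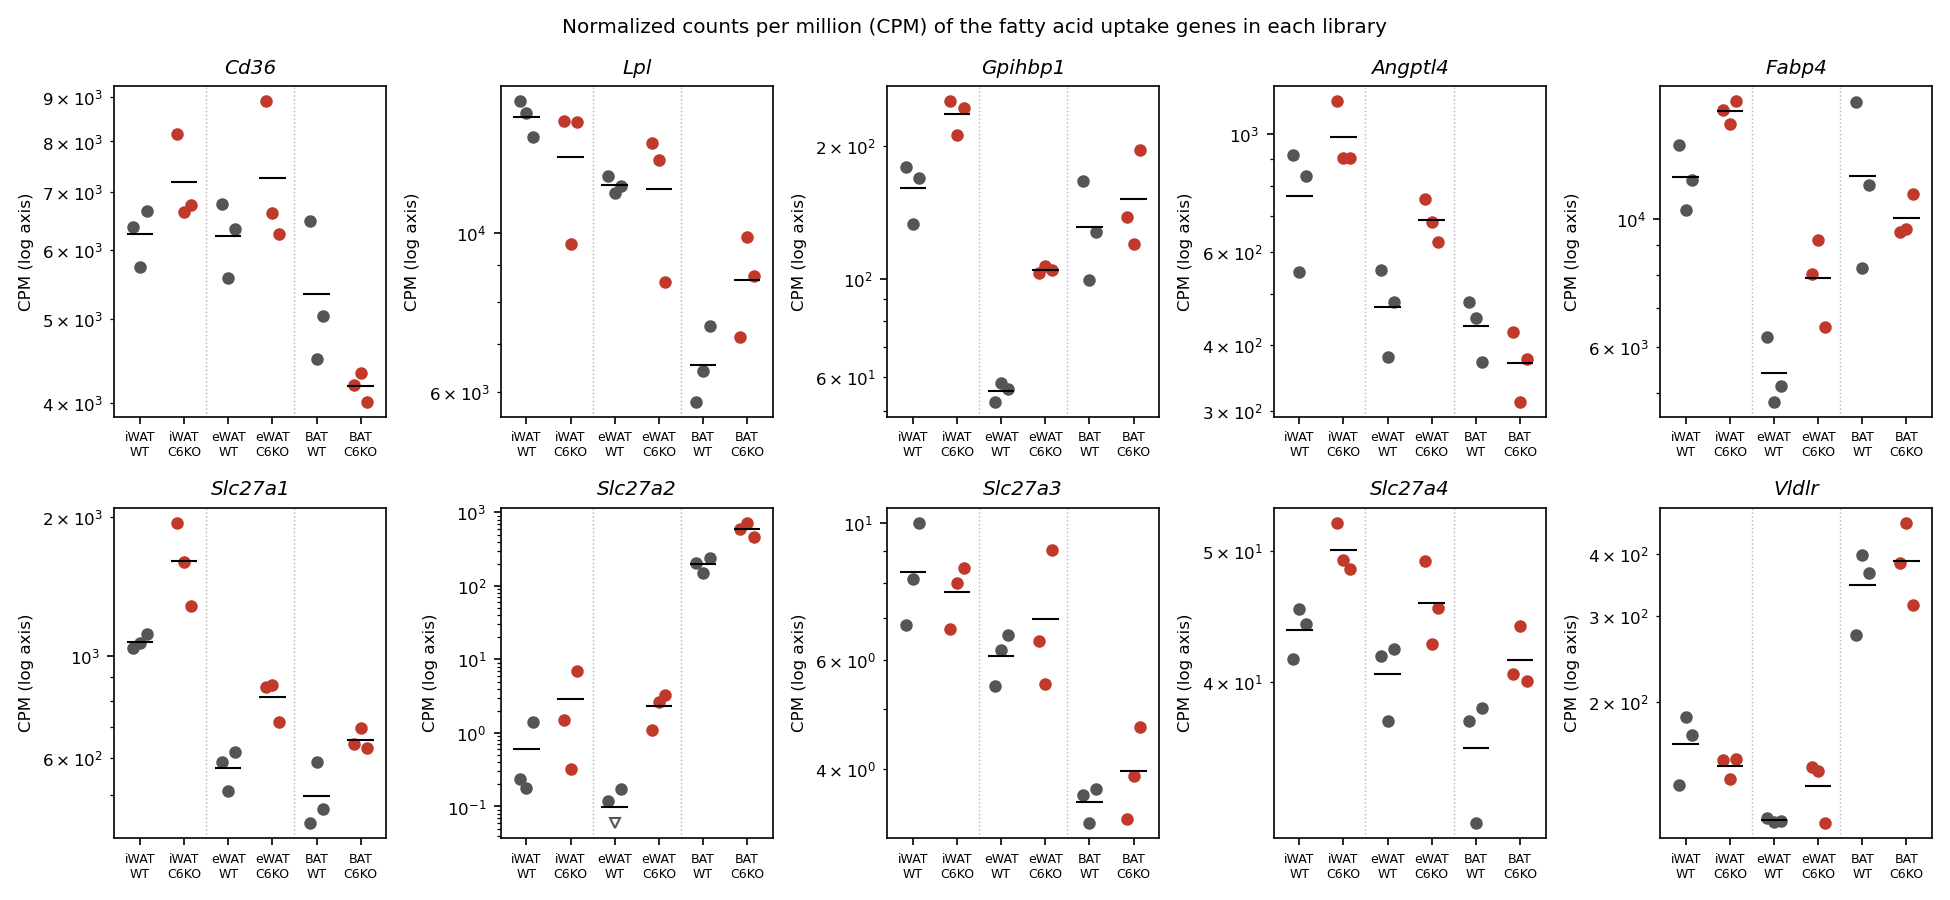
Depth-normalized counts (CPM, log axes, a separate range for each gene) of the 10 genes in each of the 18 libraries, with WT in grey, C6KO in red, a line at each group mean and dotted lines between depots, which were normalized separately. An open triangle marks the library with 0 counts of Slc27a2. The C6KO libraries lie above all WT libraries for Slc27a1 and Slc27a4 in each depot, for Gpihbp1 and Fabp4 in iWAT and eWAT, for Angptl4 in eWAT and for Slc27a2 in eWAT and BAT, and below all WT libraries for Cd36 in BAT.

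In the comparison of C6KO with WT, a gene was called when its adjusted p was under 0.05 and its change at least 1.5-fold. Among the 10 genes Gpihbp1 and Slc27a2 rose in eWAT and Slc27a2 rose in BAT, and none was called in iWAT. The deleted Casp6 was itself not called in iWAT or BAT by edgeR, so a gene not called there is not shown to be unchanged. By edgeR the background in iWAT was 0.00688% of genes called higher in C6KO and 0.0206% called lower. The corresponding background was 0.537% and 0.208% for eWAT, and 0.169% and 1.07% for BAT. At an unadjusted p under 0.05, 2 of the 10 genes were found in iWAT, beside 16.5% of all genes tested, 5 in eWAT, beside 17.6%, and 1 in BAT, beside 13.2%, so the counts of iWAT and BAT were near the background. All 3 calls were lost when the 18 libraries were fitted together, as given with each gene. DESeq2, the tool named in the study's methods, called Gpihbp1 and Slc27a2 in eWAT, Slc27a2 in BAT and 0 genes of the list in iWAT. Its background of genes called higher and lower was 1.15% and 3.42% for iWAT, 2.78% and 1.23% for eWAT, and 1.06% and 2.65% for BAT. In bulk tissue, fewer cells of a type and less RNA per cell cannot be told apart, which holds for each difference that follows.

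Gpihbp1 (NM_026730, plus strand, mm10 chr15:75596630-75598213) had the smallest adjusted p of the 10 genes in eWAT and in iWAT. In eWAT its CPM (counts scaled to library depth), normalized by the trimmed mean of M values within each depot, was 52.6, 57.9 and 56.1 in WT and 103, 107 and 105 in C6KO. The 2 genotypes were well separated, with little spread within either, and Gpihbp1 rose 1.89-fold (log2 fold change 0.92, SE 0.0938, edgeR quasi-likelihood adjusted p = 0.0132). The iWAT libraries had 179, 133 and 169 CPM for WT, then 252, 211 and 243 for C6KO, again without overlap, but the difference of 0.56 on the log2 scale (SE 0.148, edgeR adjusted p = 0.165) was not called. By DESeq2 the adjusted p of Gpihbp1 was 2.56e-12 in eWAT and 0.0237 in iWAT, where the fold change stayed under 1.5-fold. In BAT the values of 167, 99.1 and 127 in WT and 138, 120 and 196 in C6KO overlapped, with a log2 fold change of 0.21 (SE 0.241). The eWAT call was lost without any 1 WT library, at adjusted p of 0.0955, 0.0701 and 0.109 without the first, the second and the third. The fold change stayed between 0.89 and 0.95 on the log2 scale. In those 3 fits 0.0132%, 0.0265% and 0.0265% of all genes were called, and the reason for the loss was not tested. With all 18 libraries in one fit the adjusted p of Gpihbp1 was 0.106.

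GPIHBP1 is made by capillary endothelial cells, and endothelial markers moved with it in eWAT. All 12 endothelial markers listed were higher in C6KO eWAT by their estimate, 11 of them at an unadjusted p under 0.05 and 2 called (Cldn5 and Robo4). Their summed level was 655 to 800 TPM in WT and 982 to 1130 TPM in C6KO eWAT, without overlap, and none of the 12 was at 0 in any library. In iWAT the sums of 1513 to 1981 TPM in WT and 1445 to 1941 TPM in C6KO overlapped almost wholly while the Gpihbp1 libraries did not. In BAT the sums of 930 to 1063 TPM in WT and 1073 to 1106 TPM in C6KO did not overlap while the Gpihbp1 libraries did. There 10 of the 12 estimates were higher and 1 had an unadjusted p under 0.05 by edgeR. The part of these endothelial levels in the rise of Gpihbp1 was not tested.

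The lipase and its inhibitor showed no called change. Lpl, the lipase itself, had CPM values of 15241, 14646 and 13566 in WT and 14303, 9628 and 14236 in C6KO iWAT, 11993, 11360 and 11618 in WT and 13314, 12614 and 8544 in C6KO eWAT, and 5815, 6410 and 7409 in WT and 7165, 9871 and 8692 in C6KO BAT. The genotypes overlapped in all 3 depots, and 1 low C6KO library, the second in iWAT and the third in eWAT, set the width of its group. The log2 fold changes were -0.19 (SE 0.199) in iWAT, -0.02 (SE 0.189) in eWAT and 0.39 (SE 0.196) in BAT. Angptl4, whose protein inactivates LPL and whose RNA responds to fatty acids and fasting, was 553, 379 and 482 CPM in WT and 756, 684 and 627 CPM in C6KO eWAT, where the C6KO libraries lay above all WT libraries. Its difference of 0.55 (log2, SE 0.152) had an edgeR adjusted p of 0.105 and a DESeq2 adjusted p of 0.0109, and at 1.46-fold stayed under the minimum fold by either tool. In iWAT Angptl4 overlapped between genotypes (549 to 915 CPM in WT, 901 to 1155 in C6KO, log2 fold change 0.36, SE 0.212), and in BAT the estimate was -0.23 (SE 0.189).

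Cd36 and Vldlr, the receptors of the list, were not called in any depot. Cd36, the main facilitator of fatty acid entry into adipocytes, was 6384, 5739 and 6656 CPM in WT and 8168, 6630 and 6760 CPM in C6KO iWAT, and 6782, 5574 and 6336 CPM in WT and 8904, 6616 and 6257 CPM in C6KO eWAT. In both white depots the first C6KO library was high and the other two lay among the WT libraries or next to them, with log2 fold changes of 0.20 (SE 0.166) and 0.22 (SE 0.175). In BAT all C6KO libraries, at 4202, 4331 and 4015 CPM, lay below all WT libraries, at 6482, 4499 and 5043 CPM, with a log2 fold change of -0.35 (SE 0.193, edgeR adjusted p = 0.478). The listed transcript of Cd36 was NM_007643 in the white depots and NM_001159557 in BAT, 3525 and 3432 bases long, so a comparison of Cd36 between genotypes within a depot was on 1 listed transcript and one of BAT with a white depot was not. Vldlr, a receptor that binds lipoproteins next to LPL, ranged from 136 to 186 CPM in WT and 140 to 153 in C6KO iWAT, from 114 to 116 and 114 to 148 in eWAT, and from 274 to 399 and 316 to 464 in BAT. It had log2 fold changes of -0.15 (SE 0.141) in iWAT, 0.23 (SE 0.118) in eWAT and 0.16 (SE 0.213) in BAT, and its libraries overlapped in each depot.

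Slc27a1, an insulin-responsive fatty acid transport protein of muscle and fat, was higher in C6KO in each depot without reaching the threshold in any. Its CPM was 1040, 1068 and 1114 in WT and 1945, 1596 and 1282 in C6KO iWAT, 590, 509 and 619 in WT and 857, 863 and 719 in C6KO eWAT, and 434, 589 and 465 in WT and 644, 699 and 632 in C6KO BAT. The genotypes did not overlap in any of the 3 depots, and the third C6KO library was the lowest of its group each time. The log2 fold changes were 0.58 (SE 0.177, adjusted p = 0.191) in iWAT, 0.51 (SE 0.129, adjusted p = 0.0824) in eWAT and 0.41 (SE 0.182, adjusted p = 0.38) in BAT by edgeR. Without the third C6KO library of iWAT, Slc27a1 was called there at a log2 fold change of 0.70 and an adjusted p of 0.0231, in a fit in which 8.64% of all genes were called. By DESeq2 the adjusted p was 0.028 in iWAT and 0.00371 in eWAT, and both fold changes stayed under 1.5-fold.

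Slc27a4, a transport protein found in most tissues and known from intestine and skin, showed small differences of the same sign. It was 41.6 to 45.3 CPM in WT and 48.5 to 52.5 in C6KO iWAT, 37.4 to 42.3 in WT and 42.7 to 49.2 in C6KO eWAT, and 31.5 to 38.3 in WT and 40.1 to 44.0 in C6KO BAT. The log2 fold changes of 0.20 (SE 0.108), 0.17 (SE 0.108) and 0.22 (SE 0.15) did not pass the test, with edgeR adjusted p-values of 0.399, 0.46 and 0.593. On the TPM scale, which is not corrected for the makeup of the library, the C6KO libraries of Slc27a4 overlapped those of WT in all 3 depots and those of Slc27a1 in BAT. Slc27a3, an acyl-CoA synthetase with low levels in fat, gave 28 to 180 counts a library and log2 fold changes of -0.11 (SE 0.22), 0.20 (SE 0.233) and 0.17 (SE 0.302).

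Slc27a2 (NM_011978, plus strand, mm10 chr2:126553024-126588243) was the one gene of the list called in more than 1 depot, at very different levels. In BAT its CPM was 204, 152 and 237 in WT and 596, 728 and 460 in C6KO. The lowest C6KO library was far above the highest WT library, and Slc27a2 rose 3.02-fold (log2 fold change 1.59, SE 0.238, edgeR adjusted p = 0.0168). The call in BAT was kept without the second or the third WT library and was lost, at adjusted p-values of 0.0501 to 0.105, without the first WT library or any 1 of the C6KO libraries, while the log2 fold change stayed between 1.44 and 1.78. Of all genes, 0.202% to 0.553% were called in the fits that lost it, and 1.29% and 0.653% in those that kept it. The BAT call was also lost with all 18 libraries in one fit (adjusted p = 0.19) and with the replicate number as a block (adjusted p = 0.0564). The eWAT call rested on few reads, with 2, 0 and 3 counts in the WT libraries against 18, 49 and 57 in the C6KO libraries. The 5 WT counts and 124 C6KO counts gave a ratio of 24.0 per unit of depth with a 95% interval of 9.99 to 75.1 that covers counting error only, and the fitted log2 fold change was 4.51 (SE 0.766, edgeR adjusted p = 0.0432). The eWAT call was lost without any 1 library other than the second C6KO library, at adjusted p-values of 0.0545 to 0.168 and log2 fold changes that ran from 3.93 to 5.19 over all 6 omissions, and with all 18 libraries in one fit the adjusted p was 0.229. Of all genes, 0.0132% to 0.219% were called in the omissions that lost it and 2.3% in the one that kept it. In iWAT the counts of 4, 3 and 25 in WT and 27, 6 and 122 in C6KO overlapped, with a log2 fold change of 2.25 (SE 1.17, adjusted p = 0.385).

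In white fat the counts of Slc27a2 stood beside those of transcripts known from hepatocytes. Apoa1, an apolipoprotein secreted by liver and intestine, was counted 16, 5 and 20 times in WT eWAT, and 44, 163 and 155 times in C6KO eWAT. In iWAT its counts were 7, 3 and 118 for WT, then 37, 11 and 456 for C6KO, and the third library of each genotype was the richest in both Apoa1 and Slc27a2. Of the 12 hepatocyte markers listed, 10 were tested in eWAT, all 10 were higher by their estimate, 8 had an unadjusted p under 0.05 and 2 were called. Leaving out Cyp2e1, which adipocytes also express and which was set aside after its values were seen, the other 11 summed to 21.6 to 31.8 TPM in WT and 55.8 to 166 TPM in C6KO eWAT and to 25.0 to 103 TPM in WT and 62.3 to 439 TPM in C6KO iWAT. In BAT the same 11 genes summed to 20.8 to 24.5 TPM in WT and 26.3 to 29.0 TPM in C6KO, and a library held 0 to 39 counts of Alb and 0 to 5 of Apoa1 beside 1575 to 8794 of Slc27a2. With Cyp2e1 kept, the sums of all 12 did not overlap between genotypes in any depot. They were 64.0 to 91.0 TPM in WT and 220.1 to 297 in C6KO eWAT, 157 to 291 and 589 to 2334 in iWAT, and 27.3 to 45.7 and 80.7 to 260 in BAT, where Cyp2e1 alone had 40 to 211 counts in WT and 363 to 2105 in C6KO. The part of these transcripts in the values of Slc27a2 was not tested in any depot.

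**Figure D2:**
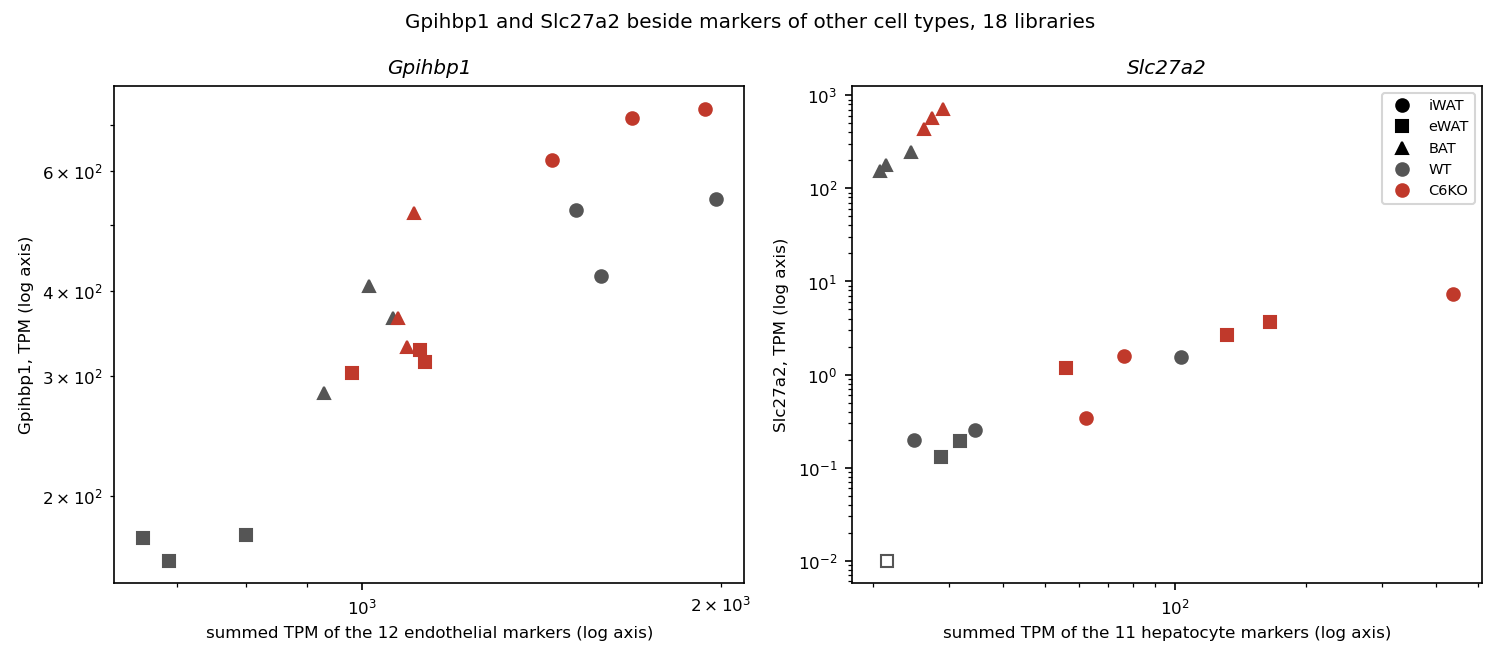
Levels of Gpihbp1 against the summed level of 12 endothelial markers and of Slc27a2 against that of 11 hepatocyte markers, in TPM on log axes, with 1 point for each of the 18 libraries (circles iWAT, squares eWAT, triangles BAT, grey WT, red C6KO). The open square at the bottom is the WT eWAT library with 0 counts of Slc27a2, drawn at 0.01 TPM. The eWAT libraries separate by genotype on both axes in both panels, and the BAT libraries sit apart in the panel of Slc27a2, with 155 to 719 TPM at 20.8 to 29.0 TPM of the markers.

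Fabp4, which carries fatty acids within the adipocyte and serves as a marker of the cell type, was higher in C6KO in both white depots without being called. Its CPM was 13398, 10344 and 11659 in WT and 15389, 14598 and 15968 in C6KO iWAT, and 6242, 4819 and 5133 in WT and 8030, 9186 and 6498 in C6KO eWAT. The genotypes did not overlap in either white depot, and the differences of 0.38 (SE 0.171, edgeR adjusted p = 0.316) and 0.55 (SE 0.177, edgeR adjusted p = 0.147) on the log2 scale missed the threshold. By DESeq2 the adjusted p of Fabp4 was 0.115 in iWAT and 0.0111 in eWAT, where the fold change stayed under 1.5-fold. In BAT the first WT library, at 15886 CPM, was well above the others, which lay between 8220 and 11437 CPM, and the log2 fold change was -0.24 (SE 0.246). Adipocyte markers moved with Fabp4 in eWAT, where all 10 listed had a higher estimate at an unadjusted p under 0.05 and the summed level was 8682 to 9115 TPM in WT and 12968 to 16288 TPM in C6KO. The adipocyte sums were also apart in iWAT, at 24500 to 25602 TPM in WT and 29776 to 47598 TPM in C6KO, with 9 of 10 estimates higher and 7 at an unadjusted p under 0.05. In BAT they were 10553 to 12559 TPM in WT and 12732 to 16958 TPM in C6KO, opposite in direction to the estimate of Fabp4. The BAT markers did not move as a set, with 8 estimates higher and 2 lower, 1 of these called lower. Their median log2 fold change was 0.15, and 4 had an unadjusted p under 0.05. In eWAT the 14 macrophage markers moved opposite to the adipocyte sums, from 14353 to 17952 TPM in WT to 8833 to 11103 TPM in C6KO. The part of these levels in the difference of Fabp4 was not tested.

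Counted over the list on the CPM scale, the C6KO libraries lay above all WT libraries for 4 of the 10 genes in iWAT, 6 of 10 in eWAT and 3 of 10 in BAT. They lay below all WT libraries for Cd36 in BAT only. Of all tested genes, 10.9% were separated upward and 12.2% downward in iWAT. These shares were 12% and 11.2% for eWAT, and 8.07% and 12.1% for BAT. The median log2 fold change of the 10 genes was 0.28 in iWAT (0.03 over all tested genes), 0.37 in eWAT (-0.01 over all) and 0.19 in BAT (-0.03 over all). On the TPM scale the counts above were 3, 5 and 1, and those below were 1, 0 and 1, with Lpl the gene below in iWAT. 

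**Figure D3:**
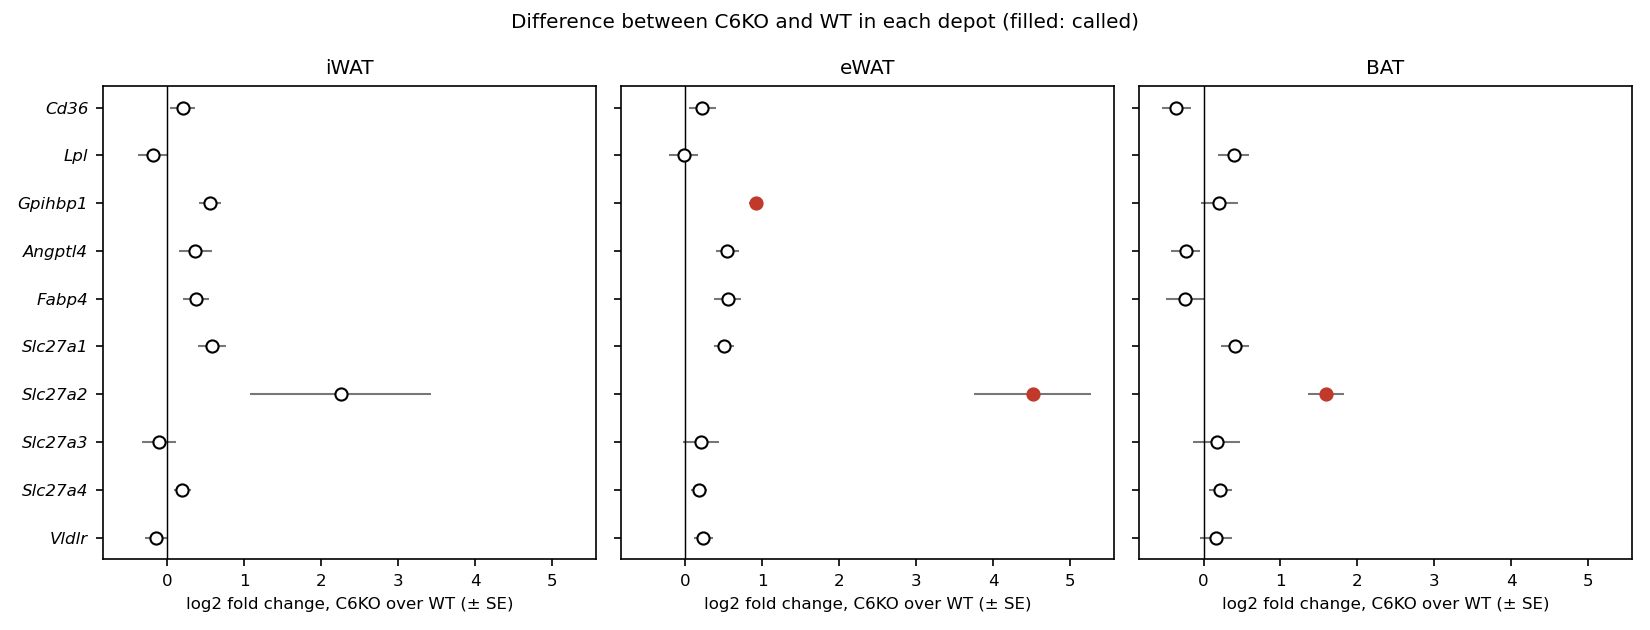
Log2 fold change of C6KO over WT with its standard error for each of the 10 genes in iWAT, eWAT and BAT, from edgeR fits of 3 libraries per genotype in each depot. Filled points are the called genes, Gpihbp1 at 0.92 and Slc27a2 at 4.51 in eWAT and Slc27a2 at 1.59 in BAT. Slc27a2 in iWAT has the widest error, an SE of 1.17.

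Whether the effect of the knockout differed between depots was tested by interaction contrasts in 1 fit of all 18 libraries. None of the 10 genes passed in any of the 3 pairs of depots by edgeR or by DESeq2. By edgeR the share of all genes called was 0% for eWAT against iWAT, where 869 genes (5.48%) had an unadjusted p under 0.05 and DESeq2 called 14, 0.536% for eWAT against BAT and 0.183% for iWAT against BAT. At an unadjusted p under 0.05 there were 0 of the 10 genes between eWAT and iWAT and 4 between eWAT and BAT, beside 11.2% of all genes. These were Fabp4 (difference of log2 fold changes 0.81, SE 0.311, adjusted p = 0.321), Angptl4 (0.78, SE 0.278, adjusted p = 0.263), Gpihbp1 (0.72, SE 0.275, adjusted p = 0.312) and Cd36 (0.58, SE 0.252, adjusted p = 0.389), each more positive in eWAT. Between iWAT and BAT the unadjusted p was under 0.05 for 2 of the 10, Angptl4 (0.60, SE 0.278) and Cd36 (0.56, SE 0.252), beside 9.93% of all genes. The call of Gpihbp1 in eWAT and its absence in iWAT and BAT are therefore not shown to be a difference between depots.

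The depots of WT mice differed more than the genotypes did. Of the 10 genes, 5 were lower in eWAT than in iWAT, against 25.7% of all genes called in either direction. They were Gpihbp1 (log2 fold change -1.68, SE 0.199), Fabp4 (-1.28, SE 0.223), Slc27a1 (-1.06, SE 0.155), Angptl4 (-0.85, SE 0.198) and Vldlr (-0.67, SE 0.163), and none was higher. All 12 endothelial and all 10 adipocyte markers were also called lower in WT eWAT than in WT iWAT, and 13 of 14 macrophage markers higher, and their part in these differences was not tested. Cd36 (-0.16, SE 0.178) and Lpl (-0.47, SE 0.198) were not called, and neither were Slc27a2, Slc27a3 and Slc27a4.

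Between WT BAT and WT iWAT, 6 of the 10 genes were called, against 38.7% of all genes. Slc27a2 (8.44, SE 0.925) and Vldlr (1.19, SE 0.164) were higher in BAT, and Slc27a3 (-1.12, SE 0.237), Lpl (-1.03, SE 0.2), Slc27a1 (-0.998, SE 0.155) and Angptl4 (-0.70, SE 0.197) were lower. Against WT eWAT, 4 genes were higher in BAT, Slc27a2 (11.16, SE 1.12), Vldlr (1.86, SE 0.167), Gpihbp1 (1.52, SE 0.199) and Fabp4 (1.42, SE 0.224), and none was lower, against 48.6% of all genes called in either direction. The fitted changes of Slc27a2 set 5662 WT BAT counts against groups with 32 and 5 counts and depend on the smallest counts. Vldlr thus ran in the order BAT, iWAT, eWAT with each step called in WT, Gpihbp1 and Fabp4 were lowest in eWAT with iWAT and BAT not called apart, Slc27a1 and Angptl4 were highest in iWAT with eWAT and BAT not called apart, and Cd36 and Slc27a4 were called between no pair of WT depots, with the limit on the listed transcript of Cd36 given above.

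In C6KO mice the counts were 4 genes lower in eWAT than in iWAT (background 24.6% of all genes), 6 called between BAT and iWAT (38.2%) and 5 called between BAT and eWAT (50.1%). Gpihbp1, Fabp4, Slc27a1 and Angptl4 were again lower in eWAT than in iWAT, at -1.32 (SE 0.197), -1.11 (SE 0.222), -1.13 (SE 0.155) and -0.67 (SE 0.197). Cd36 (-0.67, SE 0.179) was called lower in BAT than in iWAT in C6KO (-0.63 with counts offset by the length listed in each depot), where in WT its value was -0.10 (SE 0.178), and Angptl4 (-0.63, SE 0.197) was called lower in BAT than in eWAT in C6KO, where in WT it was 0.15 (SE 0.197). Those changes between genotypes are the interaction contrasts given above, none of which passed after adjustment. Slc27a2 and Vldlr were higher in BAT than in either white depot in C6KO as well, at 7.78 (SE 0.846) and 1.5 (SE 0.166) against iWAT and 8.25 (SE 0.866) and 1.79 (SE 0.167) against eWAT.

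**Figure D4:**
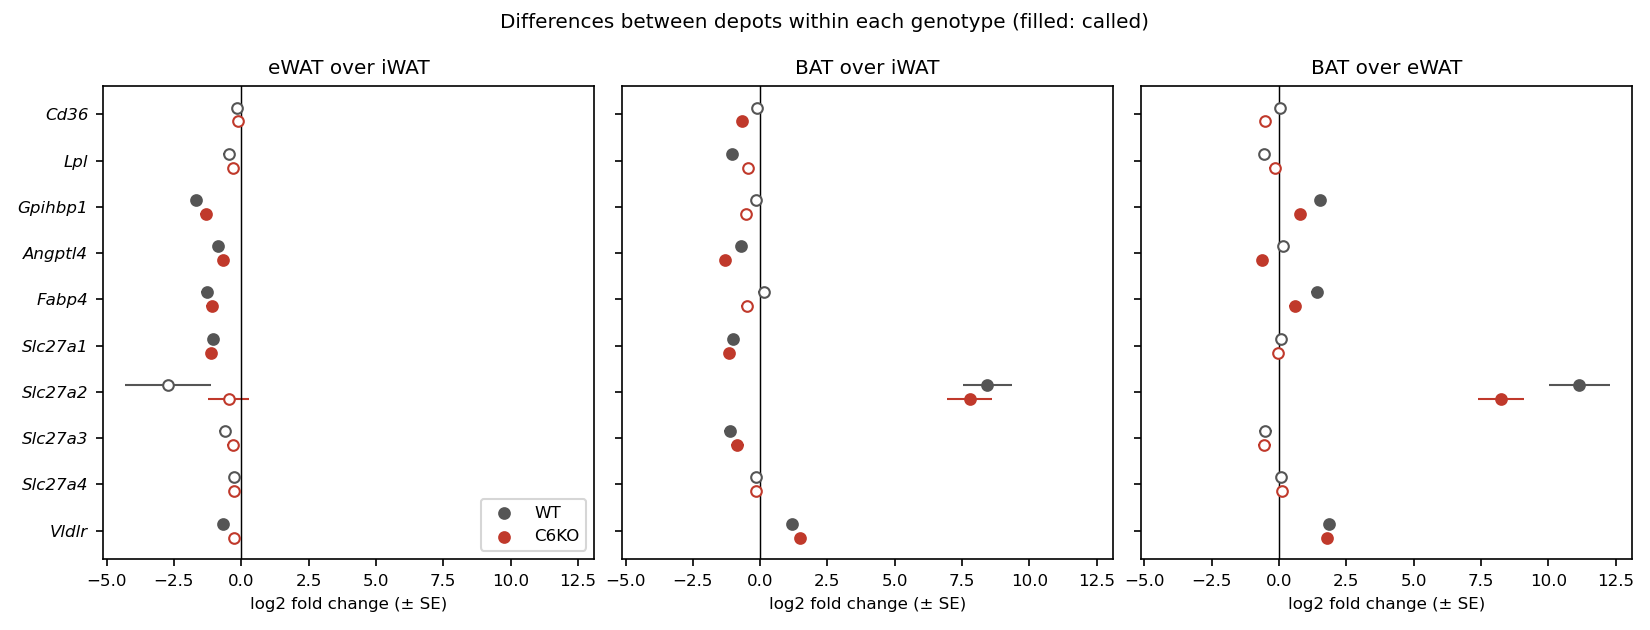
Log2 fold change between depots with its standard error for the 10 genes, in WT (grey) and C6KO (red), from 1 edgeR fit of 18 libraries. Filled points are called. Slc27a2 stands far to the right in both comparisons with BAT, at 8.44 and 11.16 in WT, and Gpihbp1, Fabp4, Slc27a1 and Angptl4 lie to the left of 0 between eWAT and iWAT in both genotypes.

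The other genes of fatty acid uptake were taken from 6 lists with 72 genes, of which the filter kept 61 for iWAT, 63 for eWAT and 59 for BAT. None was called between genotypes by edgeR, with 10 (16.4%), 14 (22.2%) and 13 (22%) at an unadjusted p under 0.05, beside the 16.5%, 17.6% and 13.2% of all genes. DESeq2 called 3 of 63, 5 of 66 and 2 of 62 genes, beside its shares of all genes given above. In iWAT the smallest p-values belonged to Lipg, an endothelial lipase (log2 fold change 1.65, SE 0.27, adjusted p = 0.116), Fabp12 (2.99, SE 0.64, adjusted p = 0.154, at 1 to 22 counts a library) and Flt1, a receptor of VEGFB (0.39, SE 0.118, adjusted p = 0.186). In eWAT they belonged to 2 genes of caveolae, Cavin2 (0.55, SE 0.117, adjusted p = 0.0588) and Ehd2 (0.56, SE 0.123, adjusted p = 0.0632), and to Fabp1, the liver fatty acid-binding protein (3.58, SE 0.802, adjusted p = 0.0648). The eWAT counts of Fabp1 were 4, 0 and 6 for WT, then 18, 72 and 37 for C6KO. In BAT they belonged to Cavin3 (-1.25, SE 0.276, adjusted p = 0.0727) and Cav2 (-0.66, SE 0.198, adjusted p = 0.171), both of caveolae, and to Acsm5, a medium-chain acyl-CoA synthetase (1.13, SE 0.328, adjusted p = 0.158). Of the 12 genes for CD36 palmitoylation, caveolae and membrane binding, 10 had a higher estimate in C6KO eWAT and 2 in C6KO BAT, with medians of 0.35 and -0.42 on the log2 scale. By edgeR the interaction contrast between eWAT and BAT called 2 of these 12 genes, beside 0.536% of all genes. They were Ehd2 (1.13, SE 0.188, adjusted p = 0.0104) and Cavin2 (0.85, SE 0.184, adjusted p = 0.0464). Among WT BAT libraries Ehd2 was highest in the second, rich in muscle markers, at 419 TPM against 315 and 349. Cavin2 was not, at 277 TPM against 267 and 291. Neither contrast was examined with 1 library left out. No other gene of the 6 lists was called in any of the 3 interaction contrasts.

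Between WT depots these lists held 29 called genes for eWAT against iWAT, 33 for BAT against iWAT and 36 for BAT against eWAT, of 69 tested. The shares called among all genes were 25.7%, 38.7% and 48.6%. Of the called genes, 5 were higher and 24 lower in eWAT than in iWAT. In BAT 14 were higher and 19 lower than in iWAT, and 23 higher and 13 lower than in eWAT. The 2 called genes with the largest rise in eWAT over iWAT were Slc27a6 (1.74, SE 0.645) and Lsr (0.98, SE 0.281), and those with the largest fall were Acsm5 (-1.90, SE 0.302) and Tcf15 (-1.83, SE 0.252), a transcription factor of capillary endothelium that acts on Cd36. In BAT over iWAT the largest called rises were those of Fabp3, the heart and muscle fatty acid-binding protein (11.41, SE 0.783), and Mfsd2a, a lipid transporter (6.41, SE 1.31), and the largest called falls those of Cavin3 (-3.03, SE 0.275) and Apoc2, the cofactor of LPL (-2.74, SE 0.624). In BAT over eWAT, Fabp3 (10.44, SE 0.729) and Mfsd2a (6.91, SE 1.35) again led the called genes, with Fabp7 (-4.17, SE 0.92) and the heparan sulfate proteoglycan Sdc1 (-3.35, SE 0.366) at the other end. In the WT BAT libraries Apoc2 had 4, 4 and 9 counts and Fabp7 had 0, 1 and 2, so their falls rest on few counts. Fabp3 had 4364, 4086 and 4280 counts in WT BAT and 0 to 15 in the WT white libraries, with no excess in the second BAT library, whereas Mfsd2a had 12, 29 and 383 counts in WT BAT and rested mainly on the third.

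Across the 18 libraries, after the mean of each depot was subtracted from log2 CPM, the genes of the list formed an unequal set. Gpihbp1, Fabp4, Angptl4 and Cd36 were positively correlated with each other, with Pearson's r from 0.43 between Cd36 and Gpihbp1 to 0.80 between Gpihbp1 and Fabp4. Slc27a1 and Slc27a4 correlated at 0.63, and Lpl and Vldlr at 0.51, while Lpl was between -0.23 and -0.04 with Cd36, Gpihbp1, Angptl4 and Fabp4. These values are descriptions, since the libraries share depots, genotypes, depth and cell makeup, and the difference between genotypes is part of each of them. The genes of all those tested that were closest to Gpihbp1 were Map1lc3a (0.907), Adig (0.892) and Id1 (0.884), those closest to Fabp4 were Dynlrb1 (0.921), Cox19 (0.919) and Apool (0.917), and those closest to Slc27a1 were Ppp1r37 (0.921), Pnpla2 (0.906), which encodes the triglyceride lipase ATGL, and Sec31b (0.886). Closest to Slc27a2 were Mat1a (0.946), Fga (0.945) and Apoa1 (0.943), each known for its expression in liver. A BAT library held only 0 to 5 counts of Apoa1, so the value for Apoa1 says little about BAT. Cd36 was closest to Exoc5 (0.943), Anxa5 (0.938) and Orc2 (0.902), and Angptl4 to Lrrc32 (0.885), Palmd (0.88) and Fgfrl1 (0.877). The nearest were Slc6a6 (0.87) and Mylk (0.842) for Lpl, Vwa8 (0.898), Wipi2 (0.891) and Tbkbp1 (0.886) for Slc27a4, Psmd1 (0.854), Heatr5b (0.829) and Rims4 (0.822) for Vldlr, and Cpm (0.755), Actr5 (0.737) and Gckr (0.688) for Slc27a3, whose low counts leave the weakest values.

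**Figure D5:**
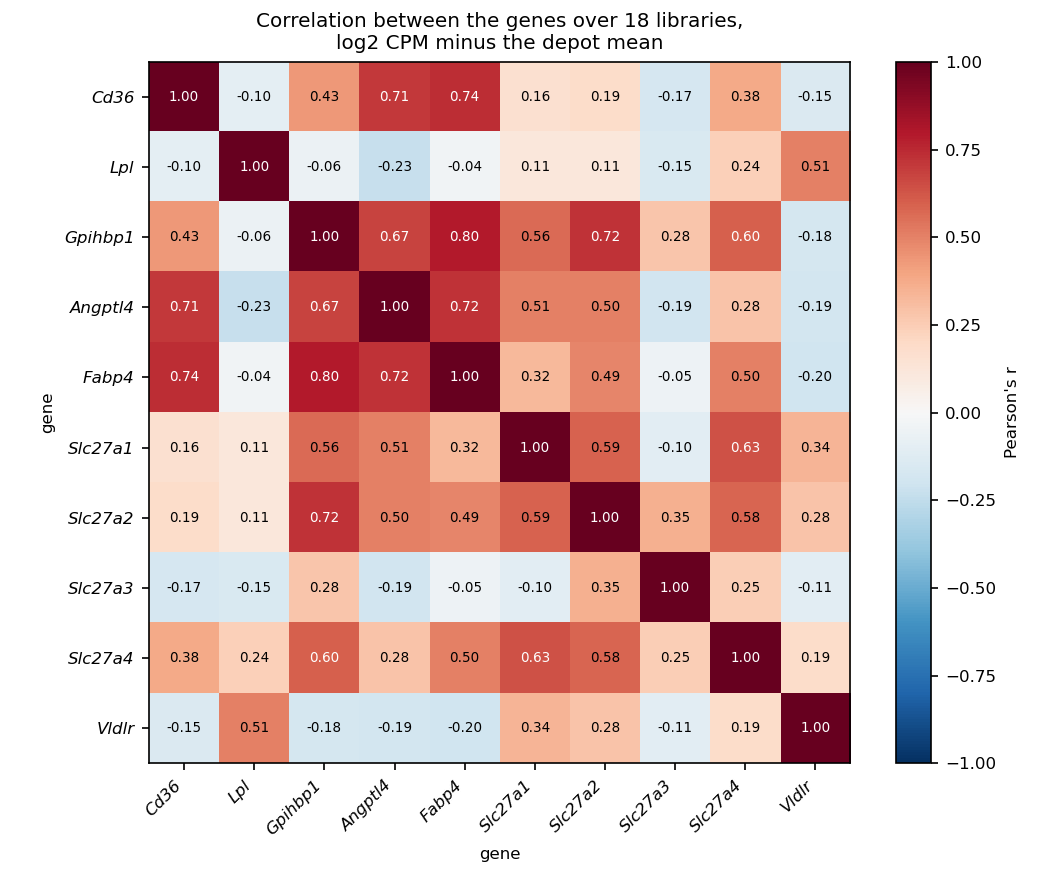
Pearson's r between each pair of the 10 genes over 18 libraries, computed on log2 CPM after the mean of each depot was subtracted, with red for positive and blue for negative values. Gpihbp1, Angptl4, Fabp4 and Cd36 form a block of values from 0.43 to 0.80, and Lpl, Slc27a3 and Vldlr lie outside it.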

How the data were processed

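RNA of 18 libraries was sequenced by the study. Per its methods, the authors mapped reads to mm10 with STAR and counted exon reads per gene with HOMER, whose tool versions are not given in the sources used here. The deposited tables hold raw counts, 1 table per depot, with gene length in bases. Counts were used as deposited, every value column matched a labelled sample, and the strand setting is not given in the sources used here. Genes were filtered by edgeR's filterByExpr and scaled by trimmed means of M values, then tested with edgeR's quasi-likelihood test (edgeR 4.0.16, R 4.3.3) within each depot for genotype and over all 18 libraries for depots and interactions. P-values were adjusted by Benjamini-Hochberg over all genes tested, 14533 in iWAT, 14889 in eWAT, 13595 in BAT and 15866 over all libraries. TPM was computed from counts and listed lengths. DESeq2 1.42.0, another scaling, other filters, a replicate block and leaving out each library were alternatives. For correlations, 1 prior count was added before log2 CPM. Steps were tested on simulated data. Intervals cover counting error only, since reads carried no molecular identifiers. Of the pathway lists, genes were named where called between genotypes, or else the 3 with the smallest p in a depot, and the 2 largest called rises and falls between WT depots. The genes and lists were chosen with earlier results of these data known. Of the genes closest in pattern to each gene, 3 were taken, and 1 of those for Lpl is not reported here.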

Additional observations from a re-analysis of the deposited data

How the results depend on the processing

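Beyond the alternatives given here, the counts of called genes of the list stayed within 1.5 times their values. With at least 10 counts required in every library, 1 gene (Gpihbp1) was called in eWAT, since the filter removed Slc27a2. With all 18 libraries in one fit, 0 genes were called in eWAT and 0 in BAT, with adjusted p = 0.106 for Gpihbp1 and 0.229 for Slc27a2 in eWAT and 0.19 for Slc27a2 in BAT by edgeR. Leaving out 1 library at a time gave 0 to 1 called genes in iWAT, 0 to 2 in eWAT, 0 to 1 in BAT and 3 to 7 between BAT and eWAT in C6KO. Estimates that changed sign when 1 library was left out had not been called. Their log2 fold changes ran from -0.23 to 0.047 for Slc27a3 in iWAT, -0.13 to 0.15 for Lpl in eWAT, -0.032 to 0.36 for Slc27a3 in eWAT, -0.44 to 0.051 for Fabp4 in BAT and -0.024 to 0.44 for Gpihbp1 in BAT. The cause was not tested.

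Replicate numbers were not taken to pair the libraries, since no pair of groups had every same-numbered correlation of deviations over 0.1: in BAT, same-numbered WT and C6KO libraries had a mean correlation of deviations of -0.263, and it was 0.0461 in iWAT and 0.0662 in eWAT. Between depots of a genotype the mean ran from -0.00198 to 0.118 and was positive in 5 of 6 pairs, the highest between WT iWAT and WT eWAT, where all 3 were positive (0.0439 to 0.219). With the replicate block, 6 genes in place of 5 were called between WT eWAT and WT iWAT, and 0 genes were called in BAT, where Slc27a2 kept a log2 fold change of 1.59 at an adjusted p of 0.0564. Depth limits Slc27a2 in white fat and Slc27a3 in BAT, with at most 122 and 48 counts a library.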
